A study of Arabidopsis thaliana with 33 samples.

Results

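WRKY53, SAG101 and GAMMA-VPE are 3 Arabidopsis thaliana genes known from leaf senescence, and they were followed here through a leaf experiment that crossed CO2, nitrogen supply and time of day. They were chosen from their measured responses to CO2 and nitrogen, each by the 1 probe set that names it alone, out of 6898 single-gene probe sets among the 12772 tested. Their CO2 and nitrogen differences are therefore given as descriptions without a test. Tests are kept for the time of day and for how the genes deviated together within groups. The interactions combine the same CO2 and nitrogen differences by condition. Their p-values are therefore not independent of the choice and are read as descriptions.

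Leaf senescence is the ordered dismantling of a leaf in which proteins, chlorophyll and lipids are broken down and their nitrogen is moved to growing organs. WRKY53 (AT4G23810) encodes a WRKY transcription factor that promotes leaf senescence and acts early in it. SAG101 (AT5G14930) encodes a lipase-like acyl hydrolase that also works with EDS1 in immune signalling, and GAMMA-VPE (AT4G32940) encodes a vacuolar processing enzyme, a cysteine protease that matures and degrades proteins in the vacuole.

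Total RNA from the youngest fully expanded leaves of Col-0 plants was hybridised to 33 Affymetrix arrays. The plants, 35 days old, grew in soil at 370 ppm (ambient) or 750 ppm (elevated) CO2 and were watered with a nutrient solution that held 6 mM NH4NO3 (ample nitrogen) or 0.25 mM NH4NO3 (limiting nitrogen). Leaves were cut at midday or at midnight. All groups shared 10 h of light and 14 h of darkness, 21 °C by day and 18 °C by night, 70% relative humidity and a light level of 250 µmol photons per square metre and second. The 8 groups were ambient ample midday (4 arrays), elevated ample midday (3), ambient limiting midday (4), elevated limiting midday (4), ambient ample midnight (5), elevated ample midnight (5), ambient limiting midnight (4) and elevated limiting midnight (4). The labels do not say whether replicates were separate plants, pools or chambers, so the tests measure only the spread between these arrays, and their number limits the precision of every value.

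Expression is given as log2 values, with every array centred to a median of 0, and levels of different genes cannot be compared because probes differ in brightness. Of 6 leaf mesophyll markers 5 were measured, and they lay between 2.21 and 6.70 on every array. Of 2 guard cell markers 1 was measured, FMA, with group means from -2.28 to -1.67. On the tested probe sets 0 of 2 phloem markers and 0 of 3 root markers were named. In whole leaves, a change in RNA per cell and a change in the share of cells that express a gene cannot be told apart. The log2 ratio of the 3' to the 5' probe sets of control transcripts had group means of 1.73 to 1.85 at midday and 1.92 to 2.54 at midnight, and ambient ample midnight replicate 4 stood apart at 4.41. The arrays with the lowest weights by spread over all probe sets were that array (weight 0.125), elevated limiting midnight replicate 1 (0.286) and ambient ample midnight replicate 3 (0.430). Results are also given without these 3 arrays. Next in weight came elevated limiting midday replicate 3 (0.500) and elevated ample midday replicate 3 (0.528), which stay in that check.

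WRKY53 was higher at elevated CO2 in the mean of all 4 nitrogen and time conditions, by 1.16 on the log2 scale (SE 0.22, 33 arrays), which is 2.23-fold. Its mean difference between limiting and ample nitrogen was smaller, at 0.46 (SE 0.22) or 1.38-fold. At ample nitrogen and midday, the ambient arrays had WRKY53 values of -2.44, -2.03, -2.45 and -2.50 and the elevated arrays values of -1.59, -1.22 and 0.03. Every elevated array lay above every ambient array there. In that comparison 13.7% of all probe sets were separate, in either direction, and shares of separate probe sets below are counted the same way. At ample nitrogen and midnight, WRKY53 read -1.22, 0.33, -1.53, -1.14 and -0.24 in ambient CO2 and 1.54, 1.39, 1.07, 0.13 and 0.63 in elevated CO2. Elevated replicate 4, the lowest of its group, lay below ambient replicate 2, the highest of its own, and all other elevated arrays lay above all ambient ones. In that comparison 2.09% of all probe sets were separate.

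Under limiting nitrogen at midday, WRKY53 read -1.77, -1.08, -1.86 and -1.71 in ambient CO2 and -1.87, -1.25, 0.16 and -1.64 in elevated CO2. Only elevated replicate 3 lay above all ambient arrays. At midnight under limiting nitrogen, WRKY53 read 0.49, 0.30, 0.54 and -0.38 in ambient CO2 and 2.21, 1.12, 0.0059 and 1.78 in elevated CO2. Of the elevated arrays 3 lay above the ambient ones, and the other fell among them. The 4 CO2 differences of WRKY53 were thus 1.43 (SE 0.48) at ample nitrogen and midday, 1.71 (SE 0.39) at ample nitrogen and midnight, 0.45 (SE 0.44) at limiting nitrogen and midday and 1.04 (SE 0.44) at limiting nitrogen and midnight. All 4 were above 0. The difference at limiting nitrogen and midday rested on 1 array, since it was 0.02 without elevated limiting midday replicate 3. At ample nitrogen and midday it was 0.95 without elevated ample midday replicate 3.

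**Figure D1:**
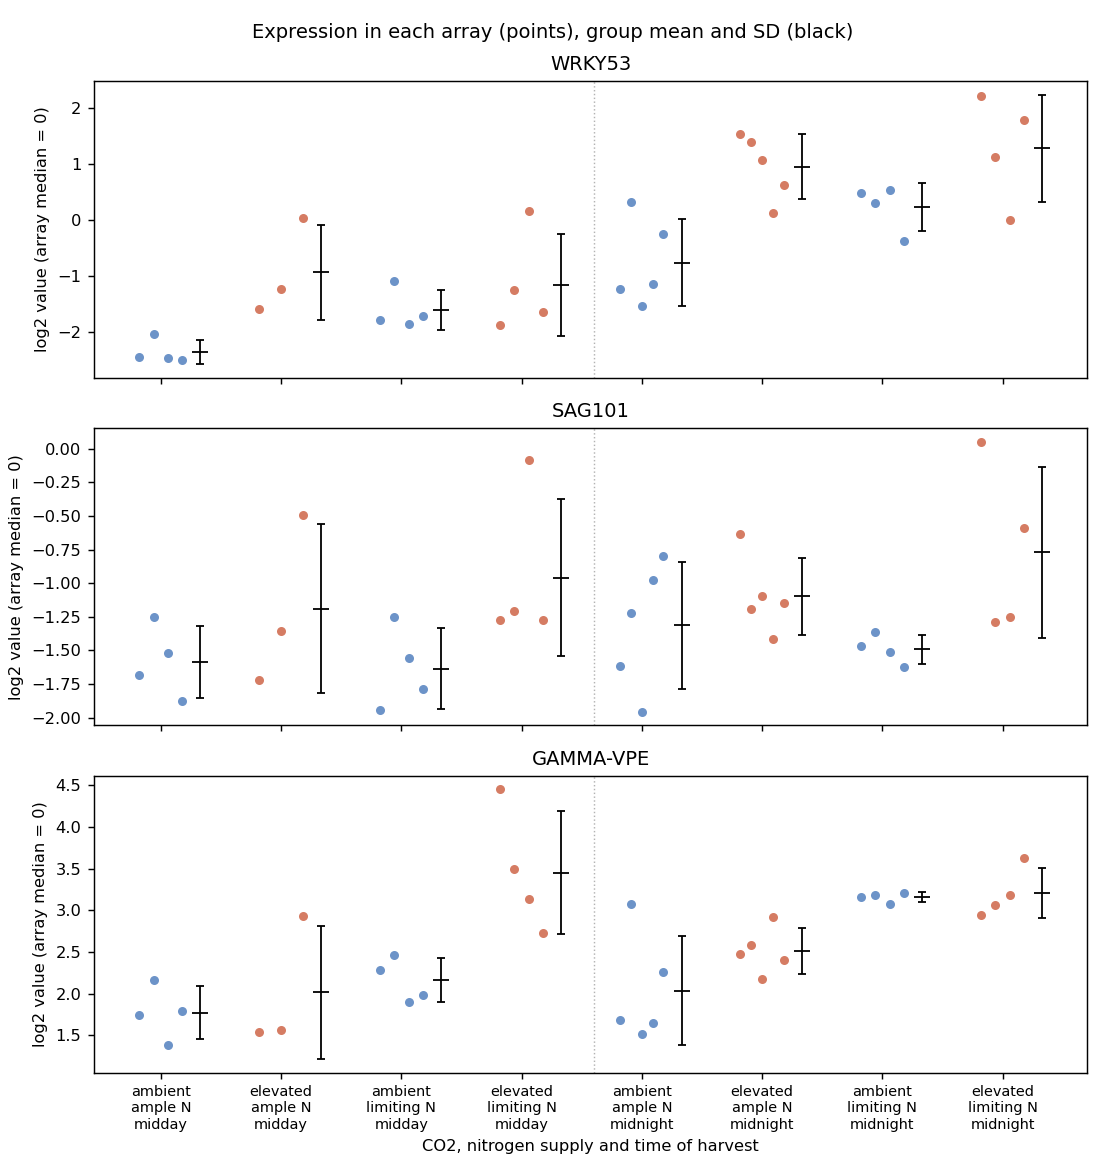
Log2 expression of WRKY53, SAG101 and GAMMA-VPE (one panel each, array median at 0) in every array of the 8 groups, with ambient CO2 in blue, elevated CO2 in red, and the group mean and SD in black. WRKY53 is lowest in ambient ample midday leaves (mean -2.36) and highest in elevated limiting midnight leaves (mean 1.28), SAG101 spans a narrower range (group means -1.64 to -0.77), and GAMMA-VPE is highest in elevated limiting midday leaves (mean 3.45).

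The same arrays gave nitrogen differences of WRKY53 (limiting minus ample) that were larger in ambient than in elevated CO2. In ambient CO2 they were 0.75 (SE 0.44) at midday and 1.00 (SE 0.42) at midnight, and in elevated CO2 they were -0.22 (SE 0.48) at midday and 0.33 (SE 0.42) at midnight. Limiting and ample arrays were separate only in ambient CO2 at midday, as in 5% of all probe sets. The sign in elevated CO2 at midday turned with 1 array, being 0.25 without elevated ample midday replicate 3, and the difference in elevated CO2 at midnight was 0.02 without elevated limiting midnight replicate 1. The CO2 by nitrogen interaction, which asks whether the CO2 difference depends on nitrogen, was -0.82 (SE 0.44) for WRKY53. It did not pass (limma, adjusted p = 0.999, unadjusted p = 0.0702), and it is made from differences that chose the genes. In that interaction 0% of all probe sets passed, and 275 had an unadjusted p under 0.05.

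SAG101 was higher at elevated CO2 by a mean of 0.50 (SE 0.14), or 1.42-fold, and its mean nitrogen difference was 0.08 (SE 0.14), or 1.06-fold. Its probe set, with a mean of -1.25 over all arrays, was among the 30% dimmest (limit -0.80). The part of this low signal in the size of its differences was not tested. At ample nitrogen and midday, SAG101 read -1.68, -1.25, -1.52 and -1.88 in ambient CO2 and -1.72, -1.36 and -0.49 in elevated CO2. The first 2 elevated arrays lay within the ambient range, and replicate 3 lay above it. At ample nitrogen and midnight, SAG101 read -1.62, -1.22, -1.96, -0.98 and -0.80 in ambient CO2 and -0.64, -1.19, -1.10, -1.41 and -1.15 in elevated CO2. Elevated replicate 1 alone stood above the ambient arrays, and the other 4 elevated arrays lay within the ambient range.

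At limiting nitrogen and midday, SAG101 read -1.94, -1.25, -1.56 and -1.79 in ambient CO2 and -1.27, -1.21, -0.09 and -1.27 in elevated CO2. Elevated replicate 3 was far above the other 3 elevated arrays, of which replicate 2 lay just above the ambient range and replicates 1 and 4 near its top. At limiting nitrogen and midnight, SAG101 read -1.47, -1.37, -1.52 and -1.63 in ambient CO2 and 0.05, -1.29, -1.25 and -0.59 in elevated CO2. Here the groups did not overlap, as in 9.4% of all probe sets, although the gap between the nearest arrays was small. The 4 CO2 differences of SAG101 were 0.39 (SE 0.31) at ample nitrogen and midday, 0.22 (SE 0.26) at ample nitrogen and midnight, 0.67 (SE 0.29) at limiting nitrogen and midday and 0.72 (SE 0.29) at limiting nitrogen and midnight. All 4 were above 0, with the larger pair at limiting nitrogen. Single arrays carried much of them: the first fell to 0.05 without elevated ample midday replicate 3, the second to 0.06 without ambient ample midnight replicate 3, the third to 0.38 without elevated limiting midday replicate 3 and the fourth to 0.45 without elevated limiting midnight replicate 1.

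The nitrogen differences of SAG101 had no common sign. They were -0.05 (SE 0.29) at midday and -0.18 (SE 0.28) at midnight in ambient CO2, and 0.23 (SE 0.31) at midday and 0.33 (SE 0.28) at midnight in elevated CO2. Limiting and ample arrays overlapped in all 4 comparisons. Single arrays turned or removed these differences as well: without ambient ample midday replicate 2 the first was 0.06, without ambient ample midnight replicate 5 the second was -0.05, without elevated limiting midday replicate 3 the third was -0.06 and without elevated limiting midnight replicate 1 the fourth was 0.05. The CO2 by nitrogen interaction of SAG101 was 0.39 (SE 0.29, limma, adjusted p = 0.999).

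In GAMMA-VPE the order of the 2 mean estimates was the opposite. Its mean nitrogen difference was 0.91 (SE 0.16), or 1.88-fold, and its mean CO2 difference was 0.51 (SE 0.16), or 1.43-fold. At ambient CO2 and midday, its arrays read 1.74, 2.17, 1.39 and 1.79 at ample nitrogen and 2.28, 2.46, 1.89 and 1.99 at limiting nitrogen. The limiting arrays were shifted up, but the groups overlapped. At ambient CO2 and midnight, GAMMA-VPE read 1.68, 3.08, 1.51, 1.65 and 2.26 at ample nitrogen and 3.16, 3.19, 3.08 and 3.20 at limiting nitrogen. The limiting arrays were nearly equal to each other (SD 0.055) and all lay above the ample arrays, although ample replicate 2 came within rounding of the lowest. A separation in either direction was found in 2.54% of all probe sets.

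In elevated CO2 at midday, GAMMA-VPE read 1.54, 1.56 and 2.94 at ample nitrogen and 4.45, 3.49, 3.13 and 2.73 at limiting nitrogen. Ample replicate 3 lay above limiting replicate 4, and the groups were otherwise separate, in a comparison where 5.67% of all probe sets were. In elevated CO2 at midnight, GAMMA-VPE read 2.47, 2.58, 2.18, 2.92 and 2.4 at ample nitrogen and 2.94, 3.07, 3.18 and 3.62 at limiting nitrogen. The groups did not overlap, as in 3.09% of all probe sets. The 4 nitrogen differences of GAMMA-VPE were 0.39 (SE 0.32) and 1.12 (SE 0.30) in ambient CO2 at midday and midnight, and 1.44 (SE 0.34) and 0.69 (SE 0.30) in elevated CO2 at midday and midnight. All 4 were above 0, and they stayed above 0 without any single array.

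The CO2 differences of GAMMA-VPE were uneven. They were 0.24 (SE 0.34) at ample nitrogen and midday, 0.48 (SE 0.28) at ample nitrogen and midnight, 1.29 (SE 0.32) at limiting nitrogen and midday and 0.05 (SE 0.32) at limiting nitrogen and midnight. Elevated and ambient arrays were separate only at limiting nitrogen and midday, as in 9.25% of all probe sets. The difference at ample nitrogen and midday turned to -0.22 without elevated ample midday replicate 3 and to -0.03 with array weights, and that at ample nitrogen and midnight grew to 0.74 without ambient ample midnight replicate 2. That at limiting nitrogen and midnight turned to -0.09 without elevated limiting midnight replicate 4. The CO2 by nitrogen interaction of GAMMA-VPE was 0.31 (SE 0.31, limma, adjusted p = 0.999).

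**Figure D2:**
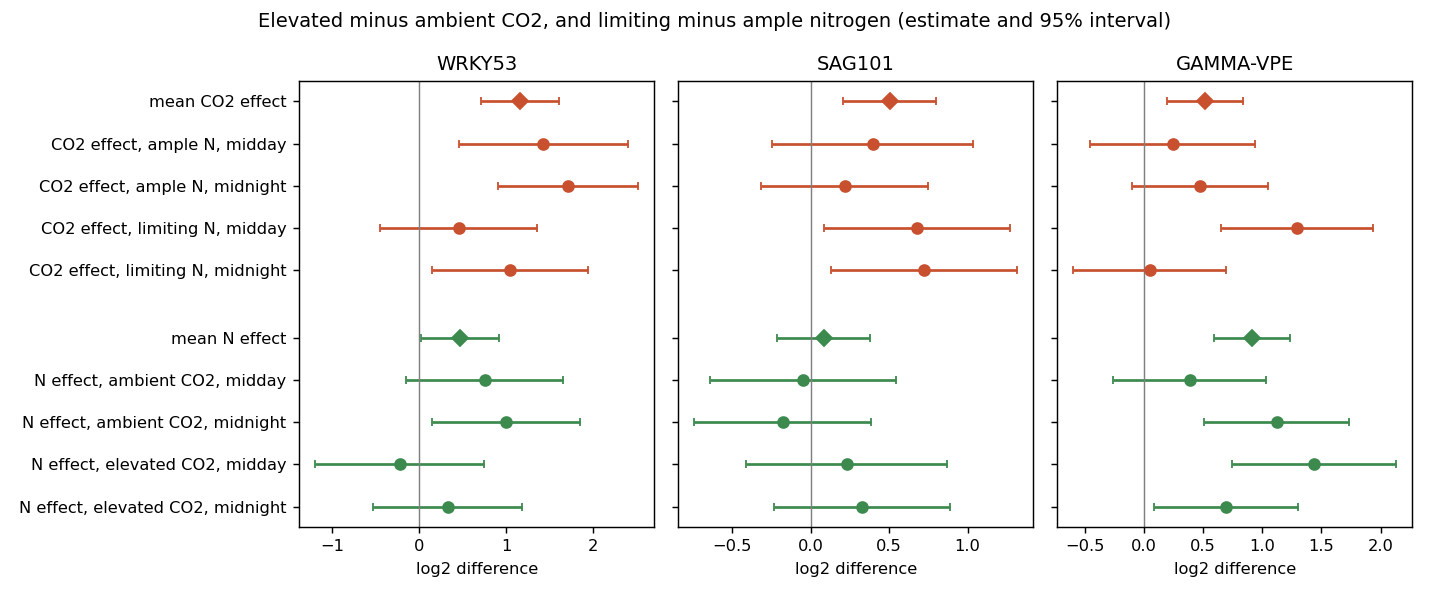
Log2 differences between elevated and ambient CO2 (red) and between limiting and ample nitrogen (green) for each gene, as the mean over conditions (diamonds) and in each of the 4 conditions (circles), with 95% intervals that describe precision and test nothing, since these values chose the genes. The mean CO2 difference exceeds the mean nitrogen difference for WRKY53 (1.16 and 0.46) and SAG101 (0.50 and 0.08), and the order is turned for GAMMA-VPE (0.51 and 0.91).

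Set against each other, the CO2 response minus the nitrogen response was 0.70 (SE 0.32) for WRKY53, 0.42 (SE 0.21) for SAG101 and -0.39 (SE 0.23) for GAMMA-VPE. The 95% intervals, which describe precision, were 0.05 to 1.34, -0.0054 to 0.85 and -0.86 to 0.07, so those of SAG101 and GAMMA-VPE included 0. Elevated ample midday replicate 3 alone moved all 3 estimates by over 1.5 times, to 0.46, 0.25 and -0.63 without it, and no sign turned without any single array. Ranked from the most positive among 12772 probe sets, WRKY53 stood at 66 for the mean CO2 difference and 90 for the mean nitrogen difference. SAG101 stood at 483 and 3093, and GAMMA-VPE at 459 and 9. Without the 3 arrays of lowest weight, the mean CO2 differences of WRKY53, SAG101 and GAMMA-VPE were 0.99, 0.41 and 0.46 and their mean nitrogen differences 0.29, -0.01 and 0.85. The nitrogen difference of WRKY53 was thus over 1.5 times smaller without those arrays, and that of SAG101 changed sign. When single arrays were left out, the nitrogen difference of WRKY53 ran from 0.35 to 0.58, that of SAG101 from 0.01 to 0.17 and that of GAMMA-VPE from 0.83 to 1.02.

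In order of group means, WRKY53 ran from ambient ample midday (-2.36, SD 0.22) through ambient limiting midday (-1.60, SD 0.36), elevated limiting midday (-1.15, SD 0.91), elevated ample midday (-0.93, SD 0.85), ambient ample midnight (-0.76, SD 0.78), ambient limiting midnight (0.24, SD 0.42) and elevated ample midnight (0.95, SD 0.58) to elevated limiting midnight (1.28, SD 0.96). All 4 midday groups came before all 4 midnight groups. Only the first neighbours in this order had no overlap between their arrays.

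For SAG101 the order began with ambient limiting midday (-1.64, SD 0.30), ambient ample midday (-1.58, SD 0.27), ambient limiting midnight (-1.49, SD 0.11) and ambient ample midnight (-1.31, SD 0.47). It went on with elevated ample midday (-1.19, SD 0.63), elevated ample midnight (-1.10, SD 0.28), elevated limiting midday (-0.96, SD 0.58) and elevated limiting midnight (-0.77, SD 0.63). The 4 ambient means came before the 4 elevated means, and every pair of neighbours overlapped.

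For GAMMA-VPE the order was ambient ample midday (1.77, SD 0.32), elevated ample midday (2.01, SD 0.80), ambient ample midnight (2.04, SD 0.65), ambient limiting midday (2.16, SD 0.26) and elevated ample midnight (2.51, SD 0.27), followed by ambient limiting midnight (3.16, SD 0.055), elevated limiting midnight (3.20, SD 0.30) and elevated limiting midday (3.45, SD 0.74). The step from elevated ample midnight to ambient limiting midnight was the only one between groups that did not overlap. The 3 highest groups were all at limiting nitrogen.

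Time of day was no part of how the genes were chosen, so it was tested. Over 15 midday arrays WRKY53 had a lowest, median and highest value of -2.50, -1.71 and 0.16, and over 18 midnight arrays of -1.53, 0.41 and 2.21. WRKY53 was lower at midday by a mean of 3.83-fold (midday minus midnight -1.94, SE 0.22, limma, adjusted p = 5.3e-09), in a comparison in which 64.5% of all probe sets passed and 31.1% were lower at midday. The midday difference of WRKY53 passed in each of the 4 conditions. It was -1.60 (SE 0.42, limma, adjusted p = 0.0028) in ambient ample leaves, where 40.6% of probe sets passed, and -1.84 (SE 0.44, limma, adjusted p = 0.00146) in ambient limiting leaves, where 35.5% passed. It was -1.88 (SE 0.46, limma, adjusted p = 0.00183) in elevated ample leaves, where 33.3% passed, and -2.43 (SE 0.44, limma, adjusted p = 6.91e-05) in elevated limiting leaves, where 35.1% passed. Midday and midnight arrays of WRKY53 were separate in 3 of these 4 conditions, in which 28.6%, 40.7% and 35.8% of probe sets were separate, and overlapped in elevated limiting leaves, where 30.5% were.

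SAG101 had a lowest, median and highest value of -1.94, -1.36 and -0.09 at midday and of -1.96, -1.24 and 0.05 at midnight. Its mean midday difference of -0.17 (SE 0.14, 95% interval -0.47 to 0.12) did not pass (limma, adjusted p = 0.299). The groups overlapped in all 4 conditions, with differences between -0.27 and -0.09 and limma adjusted p-values between 0.461 and 0.845.

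GAMMA-VPE had a lowest, median and highest value of 1.39, 2.17 and 4.45 at midday and of 1.51, 2.93 and 3.62 at midnight. Its mean midday difference of -0.38 (SE 0.16), or 1.30-fold lower at midday, passed (limma, adjusted p = 0.0356), as 64.5% of all probe sets did. By condition the difference passed in ambient limiting leaves, at -1.0 (SE 0.32, limma, adjusted p = 0.0133), where the groups were separate. There 35.5% of all probe sets passed and 40.7% were separate. It was -0.26 in ambient ample leaves (limma, adjusted p = 0.511), -0.50 in elevated ample leaves (limma, adjusted p = 0.249) and 0.25 in elevated limiting leaves (limma, adjusted p = 0.577). The mean call was lost without any one of 10 arrays, with limma adjusted p between 0.0512 and 0.0857: ambient ample midday replicate 3 (-0.35), elevated ample midday replicates 1 (-0.32) and 2 (-0.32), ambient limiting midday replicates 3 (-0.36) and 4 (-0.36), elevated limiting midday replicates 3 (-0.35) and 4 (-0.32), ambient ample midnight replicate 2 (-0.31), elevated ample midnight replicate 4 (-0.35) and elevated limiting midnight replicate 4 (-0.34). Without the 3 arrays of lowest weight it was -0.48 (limma, adjusted p = 0.0109). The difference in elevated ample leaves passed without elevated ample midday replicate 3, at -0.96 (limma, adjusted p = 0.0307).

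Control signals also differed by time of day. The 3' to 5' ratios above had higher group means at midnight, and of 37 hybridisation and labelling controls 23 were higher at midday, with a median difference of 0.18 and a range from -0.75 to 0.99. Their part in the time differences was not tested. The interactions with time did not pass for any of the 3 genes. The CO2 by time interaction, in which 0% of all probe sets passed and 695 had an unadjusted p under 0.05, was -0.44 (SE 0.44, limma, adjusted p = 0.945) for WRKY53, 0.06 (SE 0.29, limma, adjusted p = 0.992) for SAG101 and 0.51 (SE 0.31, limma, adjusted p = 0.913) for GAMMA-VPE. The nitrogen by time interaction, in which 0.102% passed, was -0.40 (SE 0.44, limma, adjusted p = 0.963) for WRKY53, 0.01 (SE 0.29, limma, adjusted p = 0.997) for SAG101 and 0.0037 (SE 0.31, limma, adjusted p = 1.00) for GAMMA-VPE.

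Replicates of 1 group spread by up to an SD of 0.96 for WRKY53, 0.63 for SAG101 and 0.80 for GAMMA-VPE, so it was asked whether the genes deviated from their group means in the same arrays. Group means hold the CO2, nitrogen and time differences, so these deviations are free of them. WRKY53 and SAG101 deviated together, with Pearson r = 0.82 (permutation within groups, two-sided, p = 3e-05, adjusted p = 0.00018) and Spearman rho = 0.82 (permutation p = 1e-05, the smallest 100000 permutations can give, adjusted p = 6e-05) over 33 arrays. Adjustment was over 6 relations, namely the 3 pairs of genes and each gene with the 3' to 5' ratio. Without the 2 arrays farthest from the median deviation of WRKY53, r was 0.82. It was 0.94 in the 15 midday arrays and 0.73 in the 18 midnight arrays, where the permutation adjusted p was 0.0606.

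The arrays that were high in both genes came from several groups. Elevated ample midday replicate 3 and elevated limiting midday replicate 3 were the highest of their groups in WRKY53 and SAG101, as was elevated limiting midnight replicate 1. So were elevated ample midnight replicate 1, ambient ample midday replicate 2 and ambient limiting midday replicate 2. Without the 3 arrays of lowest weight r was 0.83, and when single arrays were left out it ran from 0.77 to 0.86. Leaving out those 3 still kept elevated limiting midday replicate 3 (weight 0.500) and elevated ample midday replicate 3 (0.528). As a description, of the other 6850 genes on single-gene probe sets 0 were closer to SAG101 in these deviations than WRKY53 was, and 17 were closer to WRKY53 than SAG101 was.

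GAMMA-VPE was not shown to deviate with either. Its r with WRKY53 was 0.31 (permutation p = 0.198, adjusted p = 0.594) and its rho 0.33 (permutation p = 0.119, adjusted p = 0.357). Its r with SAG101 was 0.21 (permutation p = 0.403, adjusted p = 0.687) and its rho 0.24 (permutation p = 0.29, adjusted p = 0.58). In midday arrays the r of GAMMA-VPE with WRKY53 was 0.24 and in midnight arrays 0.40, and it was 0.29 without the 2 farthest arrays and 0.17 to 0.51 without single arrays. The r of GAMMA-VPE with SAG101 was 0.39 without the 2 farthest arrays and 0.03 to 0.34 without single arrays. Deviations in the 3' to 5' ratio had r = -0.06 with WRKY53 (permutation p = 0.893), 0.20 with SAG101 (permutation p = 0.458) and -0.02 with GAMMA-VPE (permutation p = 0.972).

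**Figure D3:**
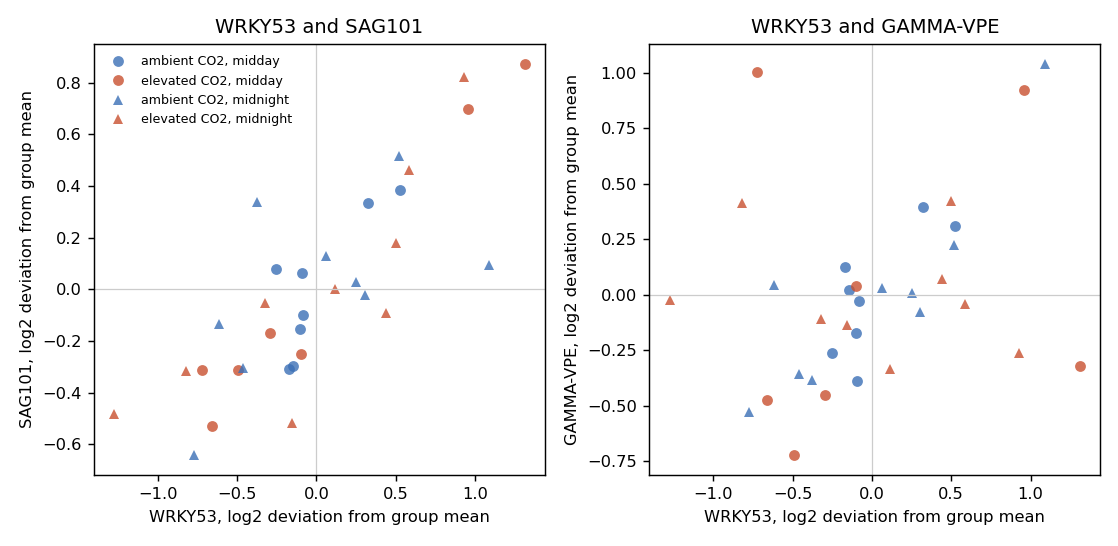
Deviation of each of the 33 arrays from its group mean (log2), WRKY53 on the horizontal axes and SAG101 (left) or GAMMA-VPE (right) on the vertical axes, with colour for CO2 and shape for time of day. The points of WRKY53 and SAG101 lie along a rising line (r = 0.82), and those of WRKY53 and GAMMA-VPE scatter (r = 0.31).

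Among 6851 genes on single-gene probe sets, the 5 most like WRKY53 by Pearson r over all 33 arrays, after the mean of each time of day was removed, were AT5G18470 (r = 0.934), AT1G66880 (r = 0.921), BZIP60 (r = 0.912), AT4G00700 (r = 0.91) and AT2G18690 (r = 0.904). BZIP60 encodes a transcription factor of the endoplasmic reticulum stress response, and its mean CO2 and nitrogen differences were 0.72 (SE 0.13) and 0.15 (SE 0.13). The other 4 carry only locus codes in the annotation, and all 5 had a larger mean CO2 difference (0.72 to 1.81) than nitrogen difference (0.15 to 0.56).

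The 5 genes most like SAG101 were GLR2.7 (r = 0.828) and GLR1.4 (r = 0.828), both of the glutamate receptor-like channel family, cwINV6 (r = 0.804), of the cell wall invertase family, AT5G46230 (r = 0.795) and AT3G51660 (r = 0.795). Their mean CO2 differences ran from 0.59 to 1.47 and their nitrogen differences from -0.0032 to 0.16. The 5 most like GAMMA-VPE were AT1G64360 (r = 0.872), AT3G03870 (r = 0.84), AT4G33040 (r = 0.819), AT2G36970 (r = 0.802) and AT4G27900 (r = 0.801), with nitrogen differences of 0.36 to 1.24 that exceeded their CO2 differences of 0.15 to 0.45. Between the 3 genes themselves the same r was 0.745 for WRKY53 with SAG101, 0.487 for WRKY53 with GAMMA-VPE and 0.371 for SAG101 with GAMMA-VPE. This r holds the CO2 and nitrogen differences, and arrays share their group, so it is a description. The like genes were picked by it, so their likeness to each gene in CO2 and nitrogen differences follows in part from the pick.

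Other senescence genes were taken from lists of regulators, senescence-associated genes, chlorophyll breakdown, EDS1 and salicylic acid, vacuolar proteases, nitrogen remobilisation and WRKY group III factors, and from the other WRKY factors named by symbol. Of 140 listed genes 16 had a single-gene probe set, so the lists are sampled thinly. In the mean CO2 comparison, where 21.3% of all probe sets passed (8.46% higher and 12.9% lower), 3 of the 16 rose and 2 fell, with a median difference of 0.08 against -0.03 over all probe sets. Leaving out the 30% dimmest probe sets kept 3 of these 5 called genes and dropped the risers AT3G48080 and WRKY47. In the mean nitrogen comparison, where 1.41% of all probe sets passed, limma called 0 of the 16, although 5 had an unadjusted p under 0.05, as did 13.6% of all probe sets. Array weights gave 2 calls, but the share of all probe sets called in that fit is not given here, so 1.41% is no measure for them. The median nitrogen difference in the unweighted fit was 0.12 against -0.01. In the mean time comparison, where 33.4% of all probe sets were higher and 31.1% lower at midday, 8 were higher and 3 lower, with a median of 0.21 against 0.02.

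The EDS1 and salicylic acid list had 1 measured member, AT3G48080, which rose at elevated CO2 by 0.87 (SE 0.21, limma, adjusted p = 0.00565) and had a nitrogen difference of -0.10 (limma, adjusted p = 0.89). Of 8 genes measured from the vacuolar protease list, which also holds CYS1, AT4G01610 rose at elevated CO2 by 0.55 (SE 0.13, limma, adjusted p = 0.00404). The other 7 did not pass. The nitrogen difference of AT4G01610 was 0.34 (limma, adjusted p = 0.227), the one with the smallest p in that list. WRKY47 rose at elevated CO2 by 0.60 (SE 0.19, limma, adjusted p = 0.0207), while WRKY20 (-0.18, limma, adjusted p = 0.0726) did not pass.

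Both measured genes of the chlorophyll breakdown list fell at elevated CO2. NOL, a subunit of chlorophyll b reductase, fell by 0.31 (SE 0.08, limma, adjusted p = 0.00613) and AT1G44000 fell by 0.46 (SE 0.10, limma, adjusted p = 0.00259). EIN3, a transcription factor of ethylene signalling, had a CO2 difference of 0.17 (limma, adjusted p = 0.126), and PPDK, pyruvate orthophosphate dikinase, one of 0.16 (limma, adjusted p = 0.184). Beside these, all 5 measured mesophyll markers had CO2 differences below 0, where 43.1% of all probe sets were above 0. Of the 5, 2 passed, PRK at -0.36 and SBPASE at -0.44, both enzymes of the Calvin-Benson cycle, where 12.9% of all probe sets were called lower. Their nitrogen differences were also all below 0, between -0.33 and -0.03, where 47.4% of all probe sets were above 0. Only 1 passed, PSAN, a subunit of photosystem I (-0.33, limma, adjusted p = 0.00591), where 1.41% of all probe sets passed. All 5 were called higher at midday, by 0.42 to 2.76, as were 33.4% of all probe sets. The 1 measured guard cell marker, FMA, had a CO2 difference of -0.13 (limma, adjusted p = 0.421) and a nitrogen difference of 0.21 (limma, adjusted p = 0.42). It was lower at midday by 0.25 (limma, adjusted p = 0.0462), where 31.1% of all probe sets were called lower. The part of the mesophyll or guard cell share in the CO2, nitrogen and time differences of the 3 genes was not tested.

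**Figure D4:**
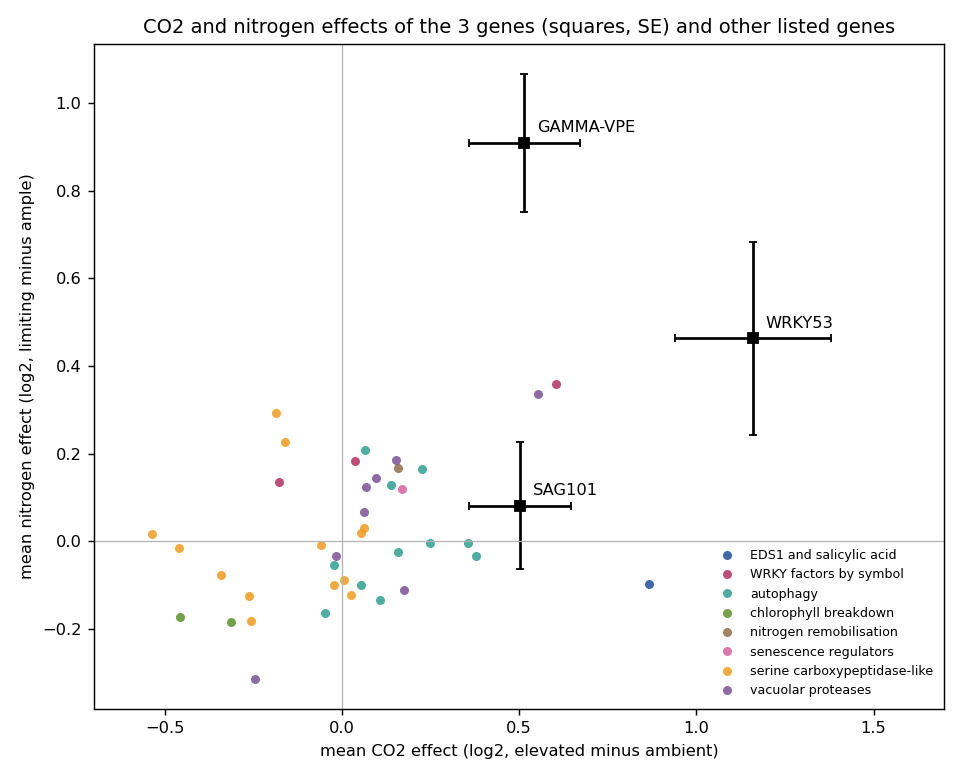
Mean CO2 difference (horizontal) against mean nitrogen difference (vertical), both log2, for WRKY53, SAG101 and GAMMA-VPE (black squares with SE) and for the other listed genes with a single-gene probe set (points coloured by list). The points include the autophagy and serine carboxypeptidase-like lists, which were added after the annotation was seen. The 3 genes were chosen for these values; WRKY53 lies farthest to the right (1.16) and GAMMA-VPE highest (0.91), while SAG101 lies level with the listed genes in nitrogen difference (0.08).

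BETA-VPE was the only other listed vacuolar processing enzyme with a single-gene probe set, and it is best known from seeds, where it processes storage proteins. Its CO2 difference was 0.17 (SE 0.18, limma, adjusted p = 0.514) and its nitrogen difference -0.11 (SE 0.18, limma, adjusted p = 0.843). In midday groups its means were 0.26 (SD 0.33) in ambient ample, 0.15 (SD 0.43) in elevated ample, -0.10 (SD 0.09) in ambient limiting and 0.24 (SD 0.90) in elevated limiting leaves. In midnight groups they were -2.68 (SD 0.32), -2.75 (SD 0.75), -3.07 (SD 0.30) and -2.54 (SD 0.64) in the same order. The lowest midday array, at -0.90, was above the highest midnight array, at -1.49, and BETA-VPE was 7.45-fold higher at midday (2.90, SE 0.18, limma, adjusted p = 4.99e-15), whereas GAMMA-VPE was 1.30-fold lower at midday.

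**Figure D5:**
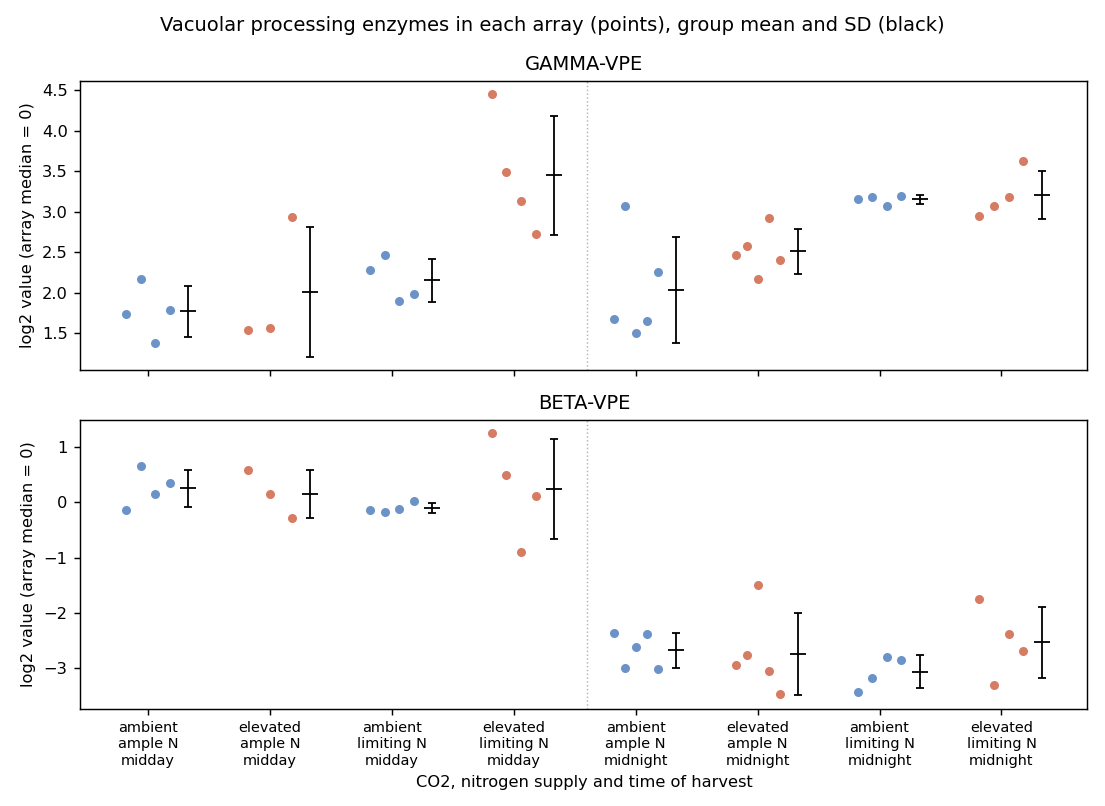
Log2 expression of GAMMA-VPE (top) and BETA-VPE (bottom) in every array of the 8 groups, array median at 0, with ambient CO2 in blue, elevated CO2 in red, and group mean and SD in black. BETA-VPE lies above -0.90 or at it in all 15 midday arrays and at -1.49 or below in all 18 midnight arrays, while the GAMMA-VPE arrays of the 2 times overlap.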

How the data were processed

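The deposited values are log2 expression of 12826 probe sets, made by the authors from arrays hybridised with biotin-labelled targets from a 3' IVT kit, per the labels' protocols. The spacing of the hybridisation controls (1.96 for a 4-fold step) gave the log base, and the median of each array was 0, so a shift common to most genes is hidden. How probes were summarised, corrected for background and filtered, and with which program, is not given in the sources used here. After 54 control probe sets were left out, 12772 were tested, of which 6898 name 1 gene in the platform annotation, updated with a table of assembly TAIR10.1, 272 name several and 5602 stay unnamed.

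Arrays were grouped by their labels. A model with 8 group means, without a block, was fitted to the 33 arrays in limma 3.58.1 (R 4.3.3), and a Benjamini-Hochberg adjusted p under 0.05 over all probe sets of a contrast was the call. A mean effect averages the 4 conditions with equal weight. Deviations from group means were correlated with 100000 permutations within groups. Deviations of arrays with the same replicate number had a median r of 0.04 (46 pairs, range -0.32 to 0.45). Arrays of different number had a median of -0.0028 (159 pairs, range -0.49 to 0.54). No test of this small difference is given, and the main fit did not treat the numbers as pairs. The fit was tested on simulated data.

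The members and lists were chosen with earlier results of these data known. Genes were named by a rule: the 3 members; for each list and mean contrast up to 4 members with the smallest p among those past the threshold, or with the smallest p where none passed; and the 5 genes most like each member. Not all of these are given in the text, and lists of serine carboxypeptidase-like and autophagy genes were added after the annotation was seen. Alternatives were quantile normalization, leaving out the 30% dimmest probe sets, array weights, a replicate block, a robust eBayes step with a trend, each array left out, and, chosen after seeing the data, leaving out the 3 arrays of lowest weight and joint deviations within each time of day.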

Additional observations from a re-analysis of the deposited data

Results flagged for a closer look

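Of 21 sets of 4 or 5 arrays (a gene in a group), 2 held an array far from the others by Dixon's test, and chance alone would give this in about 5% of such sets. WRKY53 in ambient ample midday replicate 2 was at -2.03, with a gap to the nearest array of 0.869 of the range, above the 95% critical value for 4 arrays, and the other 3 arrays of that group lay lower, between -2.50 and -2.44. SAG101 in elevated limiting midday replicate 3 was at -0.087, with a gap of 0.946 of the range above the same critical value, and the other 3 arrays lay between -1.27 and -1.21.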

How the results depend on the processing

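Of 377 values recomputed under settings other than leaving out 1 array, 9 changed sign. No cause was tested for the changes below unless given. With quantile normalization the nitrogen by time interaction of GAMMA-VPE was -0.12. The filter on the 30% dimmest probe sets left 3 other senescence genes called for CO2, since it kept 12 of the 16 genes and 3 of the 5 called. The called genes it removed, AT3G48080 and WRKY47, had both been called higher. It also removed SAG101, which has no value there. With a replicate block the nitrogen by time interaction of SAG101 was -0.000798, and the block changed no other direction or call (GAMMA-VPE time effect -0.38, limma adjusted p = 0.0418). Array weights called 2 other senescence genes for nitrogen, and the share of all probe sets called in that fit is not given here. They also called the time effect of GAMMA-VPE in elevated ample leaves (-0.76, limma adjusted p = 0.0264). The CO2 difference of GAMMA-VPE at ample nitrogen and midday turned to -0.03 with them. Without the 3 arrays of lowest weight, the mean nitrogen difference of SAG101 was -0.01, the time effect of SAG101 in elevated limiting leaves was 0.084, and the r with the 3' to 5' ratio was 0.10 for WRKY53 and 0.25 for GAMMA-VPE. Among midday arrays that r was -0.083 for SAG101 and 0.28 for GAMMA-VPE, and in midnight arrays r between WRKY53 and SAG101 was 0.73 (permutation adjusted p = 0.0606). When arrays were left out one at a time, the mean time effect of GAMMA-VPE ran from -0.49 to -0.31 (limma adjusted p from 0.00458 to 0.0857). The CO2 by time interaction of SAG101 ran from -0.11 to 0.20, its nitrogen by time interaction from -0.13 to 0.19 and that of GAMMA-VPE from -0.16 to 0.23. The time effect of SAG101 ran from -0.44 to 0.17 in elevated ample and from -0.48 to 0.084 in elevated limiting leaves, and that of GAMMA-VPE from -0.088 to 0.49 in elevated limiting leaves. The r with the 3' to 5' ratio ran from -0.18 to 0.14 for WRKY53 and from -0.13 to 0.37 for GAMMA-VPE. Single conditions hold 3 to 5 arrays a group, which limits each difference.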

Other observations

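Lists added after the annotation was seen covered other routes of protein breakdown in the vacuole. Of 11 autophagy genes 2 rose at elevated CO2, where 8.46% of all probe sets did, ATG8D by 0.36 (limma, adjusted p = 0.0113) and APG8A by 0.38 (limma, adjusted p = 0.0115), both of the ATG8 family that coats autophagosomes, and the median of the list was 0.14. For nitrogen limma called 0 of the 11, and 1 had an unadjusted p under 0.05, namely ATG3, the enzyme that attaches ATG8 to lipid (0.21, limma, adjusted p = 0.276). By time of day 6 were lower and 2 higher at midday, against 31.1% lower and 33.4% higher among all probe sets. ATG8D, the one with the smallest p, was lower at midday by 2.11 on the log2 scale (-2.11, limma, adjusted p = 6.03e-18), the same direction as WRKY53.

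Of 13 serine carboxypeptidase-like genes, which encode proteases and acyltransferases of one family, 4 fell at elevated CO2, where 12.9% of all probe sets did. These were scpl25 (-0.54, limma, adjusted p = 0.00166), SCPL34 (-0.46, limma, adjusted p = 0.00359), scpl42 (-0.34, limma, adjusted p = 0.0132) and scpl26 (-0.26, limma, adjusted p = 0.0389), and the median of the list was -0.16. For nitrogen limma called 0 of the 13, and 1 had an unadjusted p under 0.05, namely scpl20 (0.29, limma, adjusted p = 0.0944). By time of day 4 were higher and 6 lower at midday, against the same shares of all probe sets as above, among them SCPL49 at -1.97 (limma, adjusted p = 2.56e-18), whose group means were 0.33 to 0.62 at midday and 2.25 to 2.62 at midnight.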
